A study of Mus musculus with 12 samples.

Results

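Formins are actin-assembling proteins, and 10 mouse formin genes (Daam1, Daam2, Diaph1, Diaph2, Diaph3, Fmn1, Fmn2, Fmnl1, Fmnl2 and Fmnl3) were followed here by gene symbol among 33560 genes with counts. Each of the 10 symbols matched 1 Ensembl identifier, and all 10 passed the filter on low counts. The remaining 5 mouse formins (Fhod1, Fhod3, Inf2, Fhdc1 and Grid2ip) are given beside them for scale. The data were asked which formins these neurons expressed beside Daam1 and whether the level of any of them differed when Daam1 carried its deletion.

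The 12 poly(A) RNA libraries came from glutamatergic neurons derived in culture from mouse embryonic stem cells and collected on day 21, after 2 h in either water (vehicle) or 10 µM Y-27632, a kinase inhibitor. WT neurons came from 3 cell lines and KO neurons from 3 lines labelled Daam1-MIC_KO, and each of the 6 lines gave 1 vehicle and 1 inhibitor library. The 4 groups were thus WT vehicle, KO vehicle, WT inhibitor and KO inhibitor, with 3 libraries each. The series text speaks of a Daam1 microexon KO and of hippocampus, whereas the label of every library describes cultured neurons, and the library labels were followed. Whether each line is 1 clone, and which parental cells the lines share, is not given in the labels. The p-values therefore measure the spread between these libraries only. Where the 2 libraries of a line were added or averaged, they measure the spread between these lines only.

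A formin is defined by its FH2 domain, which as a dimer starts an unbranched actin filament and stays on its growing end, while the neighbouring FH1 domain feeds in actin bound to profilin. Most of the family is folded shut until a small GTPase binds, so that GTPase signalling decides where filaments form. In developing neurons formins are known from growth cones, filopodia and dendritic spines. Microexons are very short exons that neurons splice into many transcripts and other cells mostly skip.

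The stretch of Daam1 that holds its microexon is printed to show what a deletion of it would remove from the transcript. In the GENCODE M21 annotation (GRCm38), Daam1 lies on the plus strand at chr12:71831078-71992333, and it has 1 internal coding exon of at most 27 nt, at chr12:71958747-71958773. It is exon 16 of 26, and 2 of the 3 coding transcripts carry it while 1 joins its neighbours directly. No label names the exon that was deleted, so this exon is shown as the annotated microexon only. The capitals below mark this exon between the last 30 nt of the exon before it and the first 30 nt of the exon after it, and the second line is the junction without it.
Daam1 with the exon: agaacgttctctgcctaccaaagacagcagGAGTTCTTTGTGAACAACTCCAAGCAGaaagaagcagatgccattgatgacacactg
Daam1 without the exon: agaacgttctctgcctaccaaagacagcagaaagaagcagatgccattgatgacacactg

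The same search was made in the other formins, to show which of them are annotated with an exon of this kind. Fmnl1 has 1 of 18 nt at chr11:103183016-103183033 on the plus strand, in 1 of its 4 coding transcripts. Diaph2 has 1 of 21 nt at chrX:129825927-129825947 on the plus strand, in 1 of its 3 coding transcripts. In both genes 2 coding transcripts join the neighbouring exons directly. Diaph1 has 2 such exons, of 9 and 27 nt, in 3 and 1 of its 5 coding transcripts. For both exons, 0 of the 5 join the neighbouring exons directly. The other 6 of the 10 formins and all 5 remaining formins have 0. Each of the 5 exons found has a length that keeps the reading frame.
Fmnl1 short exon: GTGCCCCCCTTCTCCCCG
Diaph2 short exon: ATAGTTGGAAGTAAAGTTCTG

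Daam2 is the gene most related to Daam1, and the junction that follows its matching exon is printed for comparison. Neither coding transcript of Daam2 has an internal coding exon of at most 27 nt. In 1 of the 2 coding transcripts of Daam2, 42 of 54 aligned nt of the exon before the microexon were identical to Daam1 (77.8%), and that Daam2 exon ended at the same position as the Daam1 exon. The alignment did not extend into the Daam1 exon after the microexon, so it is not shown that the next Daam2 exon corresponds to the one after the microexon. The other Daam2 transcript aligned over 10 nt at most.
Daam2 junction: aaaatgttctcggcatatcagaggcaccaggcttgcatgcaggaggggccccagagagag

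The deposited tables hold 1 count per gene, so neither the presence nor the loss of a 27 nt exon can be read from them. They can show only whether the level of the whole gene differed. In cRPKM, the authors' reads scaled by gene length and by library size, Daam1 stood at 28.5, 25.0 and 31.3 in WT vehicle (lines 1 to 3) and at 25.35, 26.9 and 29.99 in KO vehicle. It stood at 28.4, 28.1 and 22.2 in WT inhibitor and at 28.3, 31.2 and 12.1 in KO inhibitor. The KO ranges lay within or across the WT ranges in both treatments, and the KO inhibitor library of line 3 was the lowest of the 12. The labels therefore have no check from the targeted gene in these tables.

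Library totals ran from 23253566 to 35012561 counts. The first principal component of all tested genes held 74.3% of the variance, and 3 libraries lay apart on it: KO inhibitor line 3 at 163, WT vehicle line 2 at 68.1 and WT inhibitor line 3 at 60.3, against -73.8 to 1.41 in the other 9. Results that rest on these 3 libraries are given with and without them. The glutamatergic markers summed to 2516 to 3046 CPM (counts after scaling all libraries to equal size) in the other 9 libraries, and to 662, 2174 and 2216 CPM in these 3, in the order just given. None of the 13 glutamatergic markers was at 0 in all 12 libraries.

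Daam1 was the most abundant of the 10 formins in 12 of 12 libraries, with a mean of 26.4 ± 5.22 cRPKM (SD, n = 12). Among all 33560 genes it ranked 2821 by mean cRPKM. Its nearest formin by level was Fhod3, best known from the sarcomeres of heart muscle, at 18.8 ± 4.01 cRPKM (SD, n = 12). Daam1 lay above Fhod3 in 11 of 12 libraries; in the KO inhibitor library of line 3 Fhod3 stood at 31.2 and Daam1 at 12.1.

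Below Daam1 came 4 formins of middle level. Fmn2, which works with Spire proteins and is known from oocytes and growth cones, had a mean of 10.98 ± 2.41 cRPKM. Fmnl1, best known from blood cells, had a mean of 10.6 ± 2.68. These neighbours did not differ beyond their spread, and Fmn2 was the higher in 8 of 12 libraries. Fmnl2, a Cdc42-binding formin of lamellipodia, had a mean of 6.59 ± 0.557, and Diaph1, the RhoA effector also called mDia1, had a mean of 6.29 ± 1.33. Over all 12 libraries these means again lay within their spread, and Fmnl2 was above Diaph1 in 9 of 12. The 3 exceptions were WT vehicle line 2, WT inhibitor line 3 and KO inhibitor line 3, the libraries that stand apart. In the other 9 libraries Fmnl2 ran from 6.2 to 7.14 cRPKM and Diaph1 from 5.15 to 6.16.

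The other 5 formins were scarce. Fmnl3, a formin of filopodia that is also known from endothelial cells, had a mean of 2.75 ± 3.07 cRPKM, and Diaph3, also called mDia2 and known for its part in cytokinesis, had 1.49 ± 1.84. In both the SD exceeded the mean. Diaph2 had 0.486 ± 0.258, Daam2 had 0.396 ± 0.347 and Fmn1 had 0.275 ± 0.0589 cRPKM. Daam2 was above Fmn1 in only 7 of 12 libraries, so their order is not settled. Behind these means lie few reads: Fmn1 had 21 to 65 counts per library, Diaph2 20 to 128 and Daam2 15 to 238.

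Of the remaining formins, Fhdc1 had a mean of 3.98 ± 0.653 cRPKM and Fhod1, a formin of stress fibres, had 1.66 ± 2.64. Inf2, which acts at the endoplasmic reticulum and in mitochondrial fission, had 0.753 ± 0.393, and Grid2ip, a partner of the delta glutamate receptor of Purkinje cells, had 0.295 ± 0.105. The order of the 10 formins was nearly the same in each group, with a Spearman correlation of 0.988 between each group's order and the order over all libraries. These orders are not independent of each other, since each group is part of the whole.

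**Figure D1:**
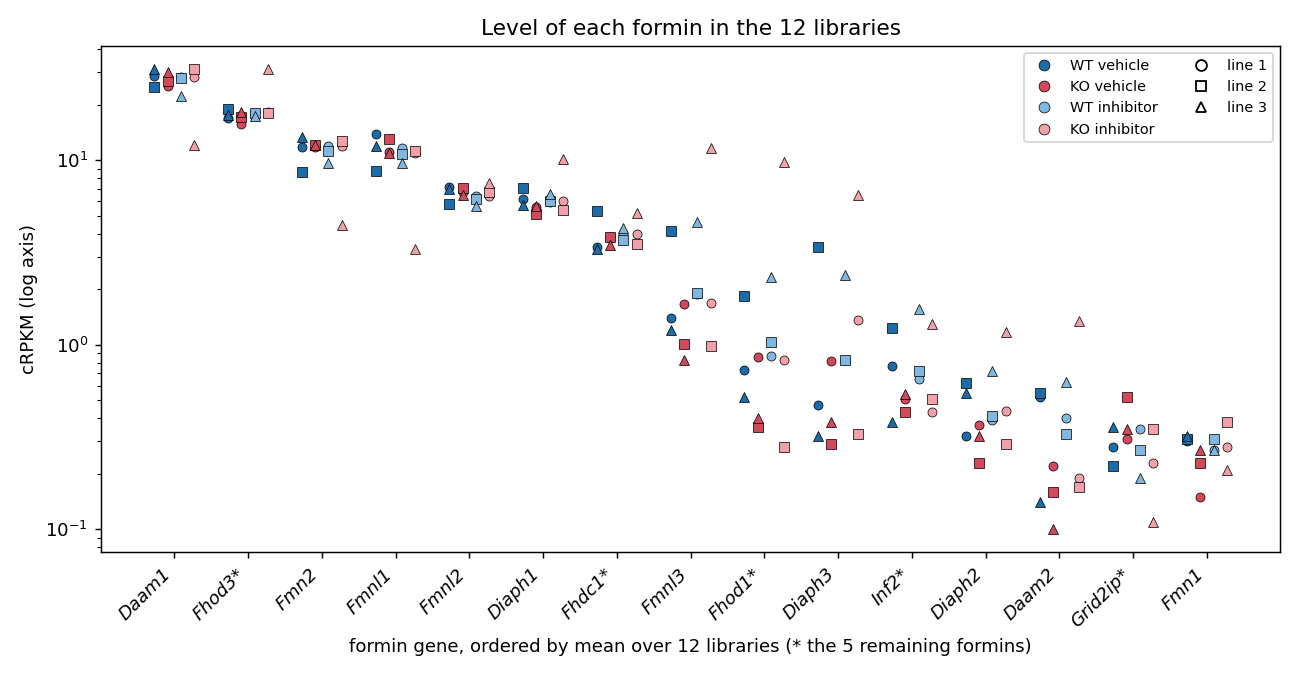
cRPKM of the 15 formins in each of the 12 libraries on a log axis, ordered by mean, with colour for the group and marker shape for the line. Daam1 is the highest of the 10 formins in every library, and Fmnl3, Fhod1 and Diaph3 show the widest vertical spread.

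Taken as a share of the summed cRPKM of the 10 formins, Daam1 made up a median of 41.2%, with a lowest value of 20.7% and a highest of 44.9%. Fmn2 made up a median of 17.6%, Fmnl1 16.4%, Fmnl2 9.68% and Diaph1 8.74%. Daam1, Fmn2, Fmnl1 and Fmnl2 together held 85.2% to 89.3% in the 9 libraries that did not stand apart. They held 74.9% in the WT vehicle library of line 2, 75.6% in the WT inhibitor library of line 3 and 46.9% in the KO inhibitor library of line 3. In that last library Fmnl3, at 11.7 cRPKM, came close to Daam1 at 12.1 cRPKM, and Diaph3 stood at 6.51 cRPKM.

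**Figure D2:**
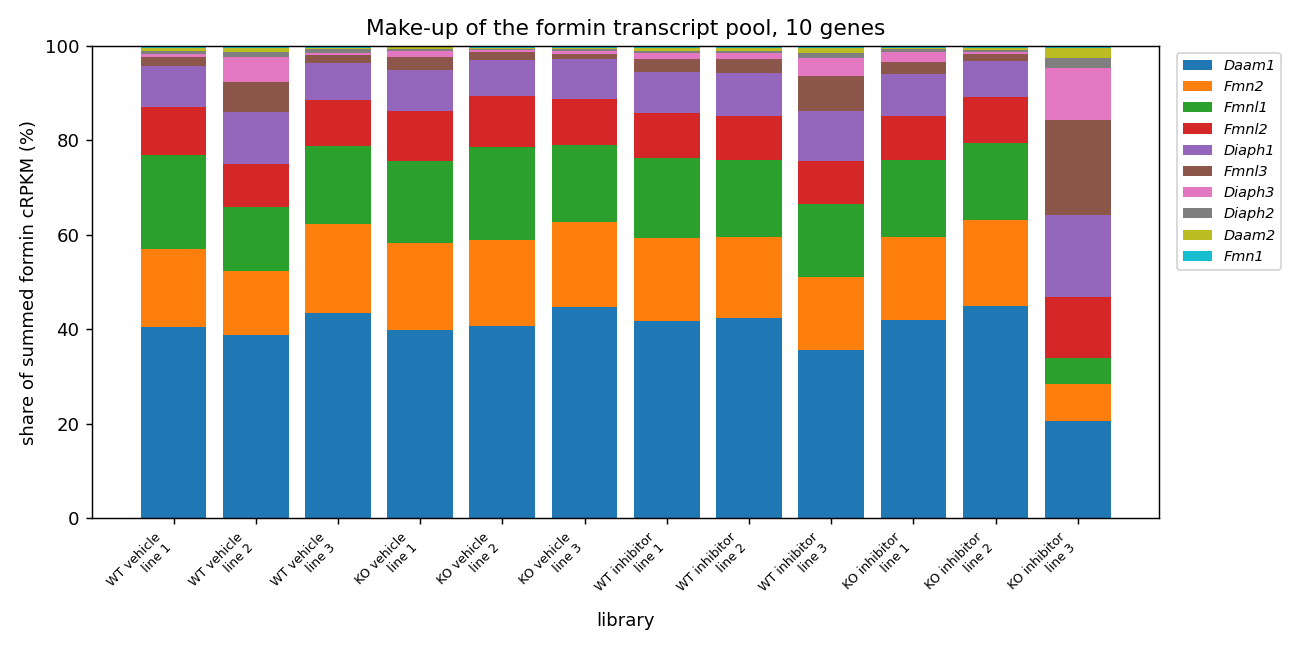
Share of each of the 10 formins in their summed cRPKM (%), 1 bar per library. Daam1 (lowest segment) holds 20.7% to 44.9%, and the KO inhibitor library of line 3 differs from the rest by its large Fmnl3 and Diaph3 segments.

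Whether the KO lines had a different formin pool was tested on line means, 3 KO against 3 WT, with a two-sided exact permutation test that cannot go below p = 0.1 at this size. The Daam1 share was 38.8 ± 5.37% in KO lines and 40.4 ± 0.756% in WT lines (SD, n = 3 each; exact permutation p = 0.9). The difference of -1.67 percentage points turned to 1.39 without KO line 3. The summed level of the 10 formins was 65.4 ± 2.51 cRPKM in KO lines and 67.2 ± 2.02 in WT lines (SD, n = 3 each; exact permutation p = 0.5). With all 15 formins the sums were 92.2 ± 5.29 and 91.3 ± 0.571, and the sign of the difference turned.

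None of the 10 formins was called between KO and WT at an adjusted p below 0.05 in edgeR's quasi-likelihood test, in vehicle, in inhibitor or over line sums (the 2 libraries of a line added together). None of all genes tested was called in these comparisons (0% of 15443 genes in each treatment and 0% of 16090 in line sums). At an unadjusted p below 0.05, 0 of the 10 formins passed in each of the 3 comparisons, against 1.99% of all genes in vehicle, 3.5% in inhibitor and 2.65% in line sums. DESeq2 likewise called 0 of the 10 formins, and it called 17, 13 and 134 genes in all. The genes at an unadjusted p below 0.05 numbered 307 in vehicle, 540 in inhibitor and 426 over line sums, and 1336, 1481 and 2136 when the inhibitor library of KO line 3 (for line sums, the whole line) was left out. Among the 10 formins, Daam2 then passed that unadjusted level in vehicle and over line sums, beside 8.57% and 13.1% of all genes, and no formin was called.

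The summed mesenchymal markers were lower in every KO library than in every WT library of the same treatment. The 7 markers summed to 125 to 1201 CPM in WT vehicle against 38.6 to 123 in KO vehicle, and to 297 to 799 CPM in WT inhibitor against 68.35 to 91.8 in KO inhibitor. Of all genes, 4.9% in vehicle and 7.03% in inhibitor had KO below WT without overlap. The 7 GABAergic markers summed to 471 to 504 CPM in WT vehicle against 586.5 to 666 in KO vehicle. With inhibitor they summed to 470 to 562 CPM in WT, to 637 and 642 in KO lines 1 and 2 and to 220 in KO line 3. The part of either marker set in the KO against WT values of the formins was not tested.

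For Daam1 itself the line sums were 167, 159 and 157 CPM in WT and 162.5, 180 and 120 CPM in KO (lines 1 to 3). KO lines 1 and 2 lay above the middle WT line and KO line 3 lay below all of them. The log2 fold change was -0.062 ± 0.16 (SE), with a 95% confidence interval of -0.45 to 0.33 and an adjusted p of 0.998 in edgeR. Without KO line 3 the log2 fold change was 0.078, and without the 3 libraries that stand apart 0.024. In vehicle it was -0.0092 ± 0.30 (interval -0.69 to 0.67) and in inhibitor -0.15 ± 0.30 (interval -0.83 to 0.52).

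The intervals of the other abundant formins also included 0 over line sums. Fmnl2 was measured most closely, with a log2 fold change of 0.13 ± 0.079 and an interval of -0.069 to 0.32. Its biological coefficient of variation of 0.148 was at the 7.28th percentile of all tested genes. Fmn2 stood at -0.016 ± 0.19 (interval -0.49 to 0.46), Fmnl1 at -0.13 ± 0.24 (interval -0.72 to 0.46) and Diaph1 at 0.051 ± 0.16 (interval -0.34 to 0.44). The signs of Fmn2, Fmnl1 and Diaph1 turned without KO line 3. With 3 lines per genotype the data are compatible with any difference inside these intervals, and failing the test does not show equal levels.

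Of the 10, only Fmn1, a formin known from limb development and adherens junctions, had groups without overlap, and in the vehicle comparison alone. In vehicle it stood at 1.41, 1.56 and 1.53 CPM in WT and at 0.769, 1.12 and 1.33 CPM in KO, from 41, 40 and 47 counts against 21, 26 and 34. All 3 KO libraries lay below all 3 WT libraries, as they did for 4.9% of all genes. The log2 fold change was -0.48 ± 0.29 (interval -1.14 to 0.18; edgeR adjusted p = 0.999). With inhibitor the groups overlapped and the log2 fold change was 0.014 ± 0.29. Of all genes, 7.62% had KO above WT without overlap in vehicle, 3.51% in inhibitor and 5.18% over line sums, and 7.03% in inhibitor and 3.78% over line sums had KO below WT. None of the 10 formins was among these.

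Over all 12 libraries, the log2 fold changes of Daam2, Diaph1, Diaph2, Diaph3, Fmn1 and Fmnl3 were negative in vehicle and positive in inhibitor. For Diaph1 they were -0.18 ± 0.20 and 0.18 ± 0.20. Daam2 stood at 3.06, 3.43 and 0.816 CPM in WT vehicle and at 1.35, 0.952 and 0.588 CPM in KO vehicle. The WT library of line 3 fell within the KO range. The log2 fold change of Daam2 was -1.33 ± 0.82 in vehicle (interval -3.15 to 0.49), 0.25 ± 0.79 in inhibitor and -0.19 ± 0.60 over line sums. When the library of KO line 3 was left out, the inhibitor value was -1.31. Without the 3 libraries that stand apart, Daam2 gave -0.99 in vehicle, -0.97 in inhibitor and -0.93 over line sums, so that the 3 values then had the same sign. Without KO line 3 the line sums gave -1.18, which passed an unadjusted p below 0.05 but not the adjustment over all genes (edgeR adjusted p = 0.233, the lowest of the line-sum alternatives).

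Diaph3 stood at 2.06, 15.8 and 1.44 CPM in WT vehicle and at 3.81, 1.30 and 1.76 CPM in KO vehicle. A single WT library, that of line 2, was high. The log2 fold change was -1.48 ± 1.14 in vehicle, and 0.38 when that library was left out. In inhibitor it was 0.95 ± 1.11, and -0.68 without the KO library of line 3. Over line sums it was 0.30 ± 0.89 with an interval of -1.91 to 2.50, the widest of the 10.

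Fmnl3 followed the same pattern of libraries, at 5.99, 18.6 and 5.19 CPM in WT vehicle and 7.50, 4.46 and 3.69 CPM in KO vehicle. Its log2 fold change was -0.93 ± 0.87 in vehicle, and -0.11 when the library of WT line 2 was left out. In inhibitor it was 0.69 ± 0.86, and -1.08 without the KO library of line 3. Diaph2 gave -0.67 ± 0.50 in vehicle, 0.26 ± 0.50 in inhibitor and -0.049 ± 0.44 over line sums. The median log2 fold change of the 10 was -0.33 in vehicle (all genes -0.01), 0.16 in inhibitor (all genes -0.0005) and -0.032 over line sums (all genes 0.045).

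**Figure D3:**
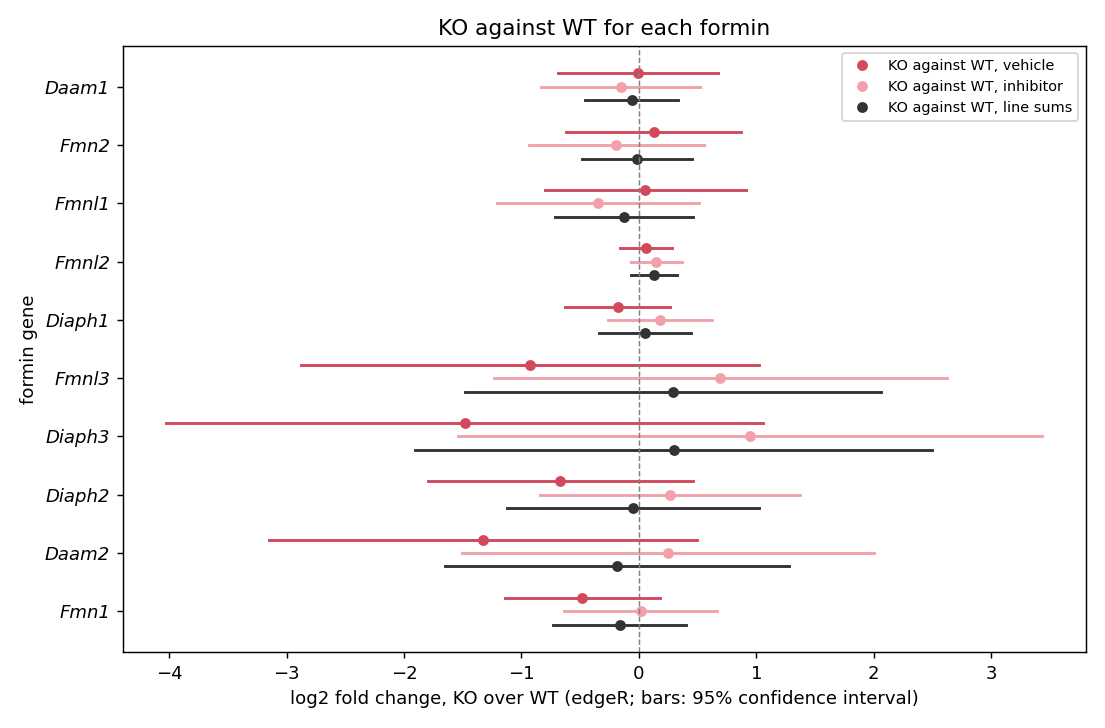
Log2 fold change of KO over WT for each of the 10 formins, with 95% confidence intervals from edgeR, in vehicle, in inhibitor and over line sums. Every interval spans 0, from the narrowest (Fmnl2) to the widest (Diaph3).

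The inhibitor comparison asked whether 2 h of Y-27632 moved any formin transcript. None of the 10 formins was called in WT or in KO neurons (edgeR; 0% of 15443 genes called in each). At an unadjusted p below 0.05, 0 of the 10 passed in either genotype, against 0.304% of all genes in WT and 7.05% in KO, and DESeq2 called 0 genes in both. In KO, other settings put up to 5 of the 10 below that unadjusted level (Daam2, Diaph1, Diaph2, Diaph3 and Fmnl3 when the inhibitor library of line 2 was left out, beside 26.1% of all genes). In WT the log2 fold changes of the 10 ran from -0.11 ± 0.098 for Fmnl2 to 0.31 ± 0.86 for Fmnl3, with Daam1 at -0.093 ± 0.30. The groups of all 10 overlapped in both genotypes, whereas 3.04% of all genes had inhibitor above vehicle without overlap in WT and 3.19% in KO, and 2.93% and 5.65% had it below.

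In KO neurons the values of Fmnl3, Diaph3 and Daam2 rested on line 3. Fmnl3 went from 7.50 to 7.28 CPM in line 1, from 4.46 to 4.40 in line 2 and from 3.69 to 48.1 in line 3, which is 0.971, 0.986 and 13.05 times the vehicle level. Its log2 fold change of 1.93 ± 0.89 (edgeR adjusted p = 0.474) became 0.16 without the KO inhibitor library of line 3. Diaph3 went from 3.81 to 6.09 CPM in line 1, from 1.30 to 1.504 in line 2 and from 1.76 to 27.6 in line 3. Its log2 fold change was 2.35 ± 1.17 (adjusted p = 0.474), and 0.73 without that library.

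Daam1 went from 155 to 167 CPM in KO line 1, from 161 to 188 in line 2 and from 182 to 67.9 in line 3. Lines 1 and 2 were slightly higher and line 3 lower with inhibitor, and the log2 fold change of -0.24 ± 0.30 (adjusted p = 0.631) became 0.095 without the inhibitor library of line 3. Fmnl1 gave -0.50 ± 0.39, and -0.098 without it. Daam2 gave 1.75 ± 0.82, and 0.19 without it. Fmn1 was at 1.75 and 1.67 times the vehicle level in KO lines 1 and 2 and at 0.739 times in KO line 3. In WT lines 1 to 3 Fmn1 was at 0.932, 0.985 and 0.862 times. Its log2 fold change in KO was 0.38 ± 0.29, and 0.585 without that library (edgeR adjusted p = 0.522 and 1). Fhod1 alone among the 15 formins had an unadjusted p below 0.05 in KO neurons in this fit. It stood at 2.64 ± 1.14 on the log2 scale (edgeR adjusted p = 0.474), and at 0.0041 without it.

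**Figure D4:**
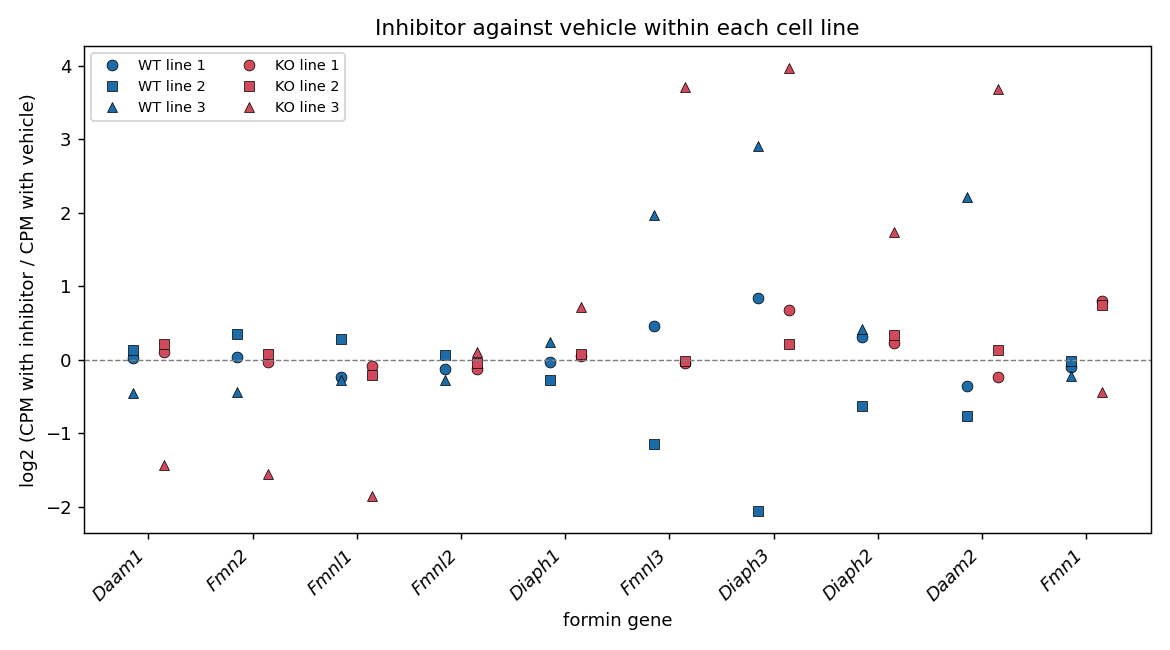
Log2 ratio of inhibitor to vehicle CPM for the 10 formins in each of the 6 lines. KO line 3 lies away from KO lines 1 and 2 for every formin except Fmnl2, and WT lines 2 and 3 lie on opposite sides of 0 for every formin except Fmn1.

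The interaction of genotype and inhibitor, the difference between the KO and the WT response, was called for 0 of the 10 formins (edgeR; 0% of 15443 genes, 1.2% at an unadjusted p below 0.05, and 0 genes in DESeq2). The log2 values ran from -0.40 ± 0.54 for Fmnl1 to 2.43 ± 1.59 for Diaph3, with Daam1 at -0.15 ± 0.43. The Diaph3 value was 0.62 when the vehicle library of WT line 2 was left out, and -0.34 when all 3 libraries that stand apart were.

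Formins differed most between the 3 libraries that stand apart and the other 9. Against the median of the other 9, Diaph3 was 13.4 times as high in the KO inhibitor library of line 3, 7.64 times in the WT vehicle library of line 2 and 5.22 times in the WT inhibitor library of line 3. In the same order, Fmnl3 was 8.04, 3.11 and 3.4 times as high and Daam2 6.55, 2.96 and 3.29 times. Diaph2 was 2.93, 1.71 and 1.93 times as high, and Fhod1 13.0, 2.66 and 3.30 times. These values are a description of libraries singled out from the data and carry no test.

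Daam1, Fmn2 and Fmnl1 lay lower in these libraries. Daam1 was at 0.403, 0.913 and 0.792 times the median of the other 9, Fmn2 at 0.348, 0.738 and 0.8003 times and Fmnl1 at 0.272, 0.789 and 0.850 times. Fmnl2 was at 1.04, 0.874 and 0.830 times, Fmn1 at 0.734, 1.16 and 0.984 times and Diaph1 at 1.65, 1.27 and 1.15 times. In the KO inhibitor library of line 3, Fmnl2 was the one of the 10 that stayed nearest to that median. The biological coefficients of variation of Daam1, Diaph1, Fmn1, Fmn2, Fmnl1 and Fmnl2 lay between the 7.28th and the 63.5th percentile of all tested genes, and those of Diaph2, Daam2, Fmnl3 and Diaph3 between the 81st and the 94.5th.

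Markers of other cells moved with these values. The 7 markers of dividing cells summed to 563, 313 and 230 CPM in the 3 libraries against 7.10 to 115 in the other 9. By group they summed to 16.3 to 313 CPM in WT vehicle, 7.10 to 71.8 in KO vehicle, 69.0 to 230 in WT inhibitor and 7.32 to 563 in KO inhibitor. The 5 progenitor markers summed to 640, 245 and 283 CPM against 35.4 to 99.9, and the 5 endothelial markers to 385, 146 and 91.1 against 4.14 to 39.0. The sums rest on few genes: Vim reached 578 CPM and Hes5 at most 2.8 CPM among the progenitor markers, and Flt1 reached 221 and Tek 131 CPM while Pecam1 stayed at 0.998 CPM or less among the endothelial ones. The 8 markers of the oligodendrocyte lineage summed to 555, 171 and 118 CPM against 24.4 to 68.7, with Mog at 3 counts or fewer in every library.

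Mesenchymal markers did not follow the same order, at 71.7, 1201 and 799 CPM against 38.6 to 404. The 7 astrocyte markers summed to 1261, 456 and 362 CPM against 192 to 349. The 6 markers of microglia and blood stayed at 13.3 CPM or less, and Cx3cr1 and Spi1 had at most 3 counts in every library. The part of these cells in the formin values was not tested. In bulk RNA, fewer cells of a type and less RNA per cell cannot be told apart.

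**Figure D5:**
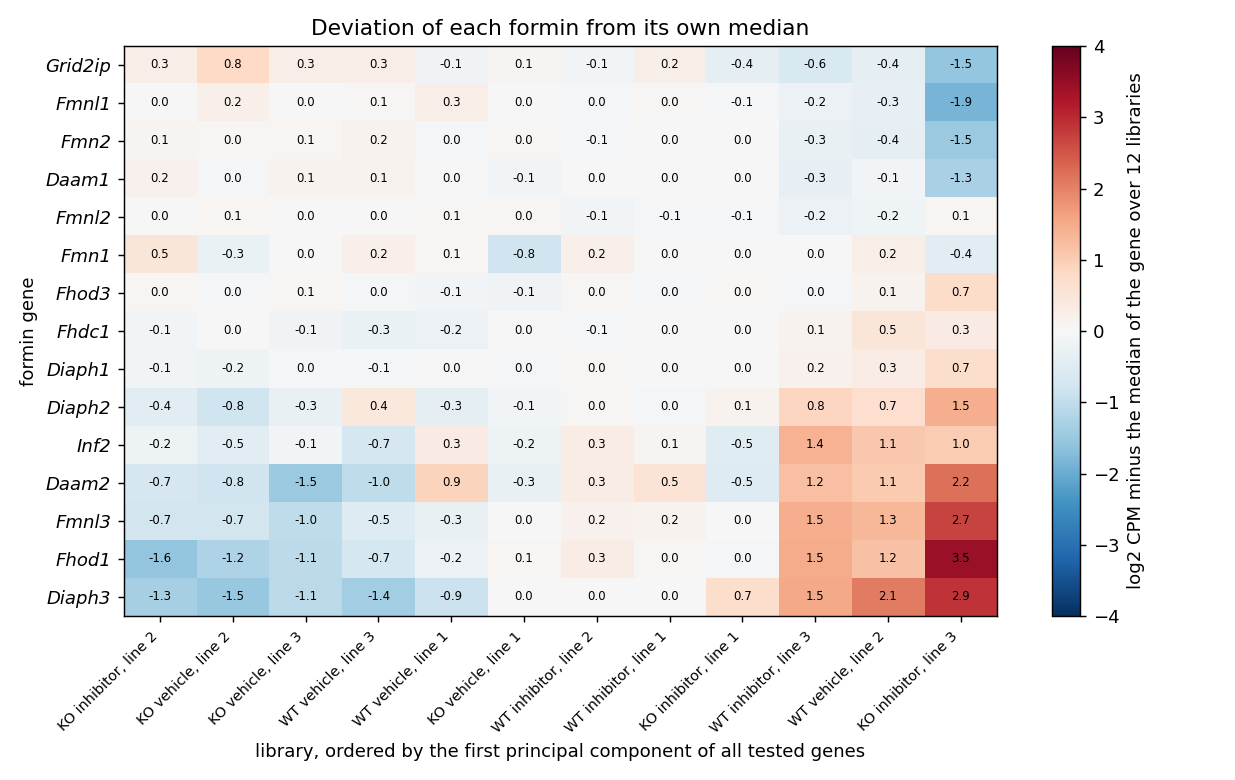
Log2 CPM of each formin minus its median over the 12 libraries, with libraries ordered by the first principal component of all tested genes. The 3 libraries at the right are high in Diaph3, Fhod1, Fmnl3 and Daam2 and low in Fmnl1, Fmn2 and Daam1.

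The genes whose log2 CPM across the 12 libraries was most like that of Daam1 were sought among 13423 genes with a mean of at least 1 CPM. They were Dpysl5, a collapsin response mediator protein of growing neurites, with a Pearson r of 0.998, Phlpp2, a phosphatase of the Akt pathway, with 0.996, and Map1b, a microtubule-associated protein of growing axons, with 0.995. When the inhibitor library of KO line 3 was left out, r was 0.981, 0.963 and 0.958 over 11 libraries. Dpysl5 stood at 91.55 CPM in that library and at 241 to 387 CPM in the other 11. The libraries share their mix of cells and their depth in such a comparison, so these values describe likeness only.

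Genes that act with formins were taken as a list of 34: small GTPases, Dishevelled proteins, profilins, actins, Spire proteins, capping proteins and others. Of these, 33 had a count and 32 passed the filter. Over line sums 12 stood higher and 20 lower in KO, and 0 were called (edgeR; 0 at an unadjusted p below 0.05). Their median log2 fold change was -0.033, against 0.045 for all genes. In the 5 other comparisons 0 were called. An unadjusted p below 0.05 was reached by 1 of 32 in KO against WT with inhibitor, beside 3.5% of all genes, and by 1 of 32 in inhibitor against vehicle in KO, beside 7.05%, so neither count stands above the background. They were Dvl3, a Dishevelled that binds Daam proteins (log2 -0.25), and the GTPase Rhoc (log2 3.38, and 0.79 when the inhibitor library of KO line 3 was left out). Rhoc went from 9.92 to 16.0 CPM in KO line 1, from 2.47 to 1.995 in line 2 and from 3.18 to 145 in line 3.

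Rhoa, the GTPase that opens Diaph1, had a median of 132 CPM and stood at 387 CPM in the KO inhibitor library of line 3. Over line sums its log2 fold change was 0.30 ± 0.32, and -0.16 without KO line 3. Profilin 1 (Pfn1) and profilin 2 (Pfn2), which supply actin to the FH1 domain, went opposite ways in that library. Pfn1 stood there at 252 CPM against 70.5 to 141 in the other 11 libraries, and Pfn2 at 203 against 491 to 658. Over line sums Pfn1 gave 0.041 ± 0.34 and Pfn2 -0.013 ± 0.20. The actins Actb and Actg1 gave -0.043 ± 0.13 and -0.0053 ± 0.14. In vehicle alone, 4 of the 32 partners had KO above WT without overlap (Rhof, Rnd2, Pfn2 and Capza2) and 3 had KO below WT (Pfn1, Actb and Srgap1), beside 7.62% and 4.9% of all genes. Pfn1 stood at 91.4, 140 and 88.6 CPM in WT vehicle and at 77.3, 76.8 and 72.6 in KO vehicle (log2 -0.50 ± 0.42). Pfn2 stood at 614, 491 and 607 CPM against 658, 651 and 657 (log2 0.20 ± 0.35), and Actb at 522, 758 and 521 against 512, 499 and 503 (log2 -0.25 ± 0.18). For each of these 3 genes it was the WT library of line 2 that lay farthest from the KO libraries, and without it the log2 values were -0.25, 0.10 and -0.050. With inhibitor, 0 partners had KO above WT and 2 had KO below it without overlap, beside 3.51% and 7.03% of all genes. Over line sums 1 of the 32 (Capza2) had KO above WT without overlap and 1 (Srgap1) had KO below it, beside 5.18% and 3.78%. In KO neurons, 0 of the 32 had inhibitor above vehicle and 6 had it below (Rnd2, Dvl3, Pfn2, Spire2, Capza2 and Srgap1), beside 3.19% and 5.65%. The 6 of 32 are a larger share than among all genes, and this excess was not tested. In WT neurons 0 of the 32 were without overlap.

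The partners with the smallest unadjusted p over line sums were Capza2 and Capza1 among those higher in KO, and Srgap1 and Cobl among those lower. Capza2, a subunit of the capping protein that competes with formins at the growing filament end, stood at 180, 157 and 184 CPM in WT vehicle and at 213, 196 and 200 in KO vehicle. These groups did not overlap, and over line sums the log2 fold change was 0.14 ± 0.084. Capza1 gave 0.17 ± 0.11. Srgap1, a Slit-Robo GTPase-activating protein, stood at 43.5, 41.4 and 52.8 CPM in WT vehicle and at 40.6, 39.0 and 39.3 in KO vehicle. Its log2 fold change over line sums was -0.17 ± 0.073 (edgeR adjusted p = 0.998). Cobl, an actin nucleator of neurons that is not a formin, gave -0.24 ± 0.16.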

How the data were processed

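The libraries were stranded and poly(A)-selected, per the labels' protocols. The authors deposited a table per library with a read count and a cRPKM value (RPKM in a corrected form the labels do not explain) for each of 36902 Ensembl genes. Of these, 3342 genes were NA in every library. The submitters' processing notes name mm10. The aligner, counter and use of strand are not given in the sources used here, so overlapping antisense genes cannot be separated.

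The formins, the partner list, the marker lists and the rule for named genes were chosen with earlier results of these data known. By that rule the 10 members, the remaining formins, Rhoa, Pfn1, Pfn2, Actb, Actg1, the 2 partners with the smallest unadjusted p in each direction over line sums, and the 3 genes most like Daam1 were named. Dvl3, Rhoc, Rhof, Rnd2 and Spire2 were named after their values were seen.

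CPM were computed from the deposited counts with TMM factors. Levels between genes were compared in deposited cRPKM only. Counts were tested with edgeR 4.0.16 in R 4.3.3 (filterByExpr, robust quasi-likelihood fit, Benjamini-Hochberg adjustment over all genes tested), all 12 libraries in 1 fit with 4 group means, and line sums in a second fit of 3 KO against 3 WT lines. The procedure was tested on simulated data. Alternatives were DESeq2 1.42.0, library totals in place of TMM, no filter, a replicate block and leaving out each library or line. Leaving out 3 libraries together was chosen after seeing the data. No libraries were duplicates (chi-square per degree of freedom at least 4.11 between any 2).

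Vehicle and inhibitor libraries are paired by cell line in the labels, and the deviations of paired libraries from their group means correlated at -0.723 to 0.574. KO and WT libraries of the same line number correlated at -0.649 to 0.167 in vehicle and at 0.38 to 0.795 in inhibitor, where all 3 pairs were above 0.1. The labels give no link between these numbers. Exons and positions came from GENCODE M21, and alignments were made with Biopython 1.88.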

Additional observations from a re-analysis of the deposited data

How the results depend on the processing

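No formin was called under any alternative, and the values below are log2 fold changes that lay on both sides of 0, none of them past the threshold. The cause of these turns was not tested. Leaving out 1 library at a time, KO against WT in vehicle ran from -0.080 to 0.061 for Daam1, -2.06 to 0.38 for Diaph3, -0.016 to 0.26 for Fmn2, -0.093 to 0.20 for Fmnl1 and -0.0094 to 0.10 for Fmnl2. In inhibitor it ran from -0.42 to 0.18 for Daam1, -1.31 to 0.66 for Daam2, -0.11 to 0.32 for Diaph1, -0.47 to 0.60 for Diaph2, -0.68 to 1.64 for Diaph3, -0.26 to 0.21 for Fmn1, -0.46 to 0.17 for Fmn2, -0.63 to 0.050 for Fmnl1 and -1.08 to 1.26 for Fmnl3. Leaving out 1 line at a time, line sums ran from -0.19 to 0.078 for Daam1, -1.18 to 0.16 for Daam2, -0.14 to 0.16 for Diaph1, -0.55 to 0.23 for Diaph2, -0.93 to 0.79 for Diaph3, -0.15 to 0.16 for Fmn2, -0.30 to 0.077 for Fmnl1 and -0.89 to 0.70 for Fmnl3. They ran from -0.049 to 0.12 for Fhdc1, -1.05 to 1.35 for Fhod1, -0.00029 to 0.28 for Fhod3, -0.17 to 0.33 for Grid2ip, -0.13 to 0.059 for Actb, -0.084 to 0.094 for Actg1, -0.44 to 0.26 for Pfn1, -0.13 to 0.17 for Pfn2 and -0.16 to 0.51 for Rhoa. For Daam1, inhibitor against vehicle ran from -0.50 to 0.095 in KO and -0.18 to 0.012 in WT, and the interaction from -0.41 to 0.19. For Fmnl3 in WT it ran from -0.26 to 1.11. The difference in Daam1 share ran from -3.67 to 1.39 percentage points.

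Without the 3 libraries that stand apart, KO against WT in vehicle was 0.39 for Diaph3, -0.012 for Fmn2, -0.086 for Fmnl1 and -0.0040 for Fmnl2. In inhibitor it was 0.12 for Daam1, -0.97 for Daam2, -0.022 for Diaph1, -0.093 for Diaph2, 0.12 for Fmn2, 0.022 for Fmnl1 and -0.47 for Fmnl3. Over line sums it was 0.024 for Daam1, -0.032 for Diaph1, 0.041 for Fmn2, -0.39 for Fmnl3, -0.55 for Fhod1, 0.018 for Actg1, -0.25 for Pfn1, 0.080 for Pfn2 and -0.0070 for Rhoa. The inhibitor effect in KO was 0.11 for Daam1, and the interaction was 0.18 for Daam1, 0.11 for Fmnl1 and -0.34 for Diaph3.

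KO and WT lines share a replicate number in the labels, with deviations that moved together in the inhibitor libraries and not in the vehicle ones, and the 2 treatments share lines. With the replicate block the line sums gave -0.0086 for Diaph3, -0.093 for Fmnl3, -0.0068 for Fhod1 and -0.059 for Pfn1, and Fmn1 in inhibitor gave -0.0013. The block changed no call and left 0 genes called in all 6 comparisons. Over all genes, DESeq2 called 17 in KO against WT with vehicle, 13 with inhibitor and 134 over line sums, 2 were called over line sums without the filter, and without the 3 libraries 2, 1 and 2 were called. The summed level differed by 0.88 cRPKM with all 15 formins. The order of the 10 formins within the KO inhibitor library of line 3 had a Spearman correlation of 0.648 with the main order, against 0.927 to 1 in the other 11. With 3 lines per genotype, and with 15 to 238 counts per library for Daam2, small differences were not detectable. For the most variable formins, large differences could be missed too. Over line sums, the edgeR confidence intervals (log2) ran from -1.65 to 1.28 for Daam2, -1.9 to 2.5 for Diaph3 and -1.48 to 2.06 for Fmnl3. The narrowest, that of Fmnl2, ran from -0.069 to 0.32.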
